A study of Homo sapiens with 6 samples.

Results

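Transcripts of 40 genes of the heat shock chaperone system were measured in cells labelled H2170, an established human cell line from a squamous carcinoma of the lung. The genes were taken as a written list of symbols, drawn up with earlier results of these data known. All 40 were found among the 61487 gene IDs of the count table. HSPB11 was found under its current name IFT25. The list holds the heat shock factors HSF1 and HSF2, 8 HSP70 genes, 3 HSP110 genes, 3 HSP90 genes, 4 genes named as small heat shock proteins, 3 mitochondrial chaperonin and disaggregase genes, 9 J proteins, 3 BAG proteins and 5 HSP90 co-chaperones. Products of DNAJC3 and HSPA13 are known from the endoplasmic reticulum and microsomes, so not every gene of the list acts in the cytosol or in mitochondria.

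Cells expressed GFP alone (Control), ACK1 (WT)-GFP (WT), or ACK1 (IDRmut)-GFP (IDRmut), with 2 libraries in each group. The gene of ACK1, a cytoplasmic tyrosine kinase, is TNK2, and the altered residues of IDRmut are not spelled out in the labels. The labels give 1 cell line and do not say whether replicates came from separate cultures, and the spread that the p-values rest on may therefore be technical. Polyadenylated RNA was sequenced, and the deposited values were raw read counts per gene.

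Chaperones bind unfolded or partly folded proteins and keep them from aggregating. HSP70 works in cycles of ATP hydrolysis that J proteins start and nucleotide exchange factors, including HSP110 and several BAG proteins, complete. HSP90 receives many kinases from HSP70 with the help of co-chaperones such as STIP1 and CDC37, and small heat shock proteins hold unfolded chains without using ATP. Under heat or other protein-damaging stress, HSF1 binds heat shock elements, which are inverted repeats of the unit GAA, and raises the transcription of many of these genes. High expression of chaperones is common in tumour cells, in which HSP90 stabilises many mutated or overexpressed kinases.

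Library totals ranged from 19128111 to 33540998 counts, with the deepest library in WT. TNK2 was at 41.1 and 43.1 CPM for Control, 3514 and 3613 for WT and 1762 and 1455 for IDRmut, so the labels matched the transgene, and every difference between WT and IDRmut was measured together with a 2.22-fold difference in ACK1 transcript. CPM, counts scaled to library size, here uses library sizes after TMM scaling, a correction for differences in composition. Among the markers of the labelled cell type, KRT14, SOX2 and TP63 were well expressed, whereas EPCAM had 0 to 4 counts per library and CDH1 0 to 3. The summed level of 6 squamous markers was 2565 to 2599 CPM in Control, 1226 to 1268 in WT and 1637 to 1759 in IDRmut. All 6 had at least 1 CPM in every library. KRT14, S100A2 and SOX2 carried the sum and fell in both arms. TP63 did not fall, with means of 23.5 CPM in Control, 27.0 in WT and 32.5 in IDRmut, nor did DSG3. KRT5 went from 13.7 CPM in Control to 8.31 in WT and 28.9 in IDRmut. The sum of 6 endothelial markers, led by CDH5, was 219 to 226 CPM in Control, 51.2 to 53.2 in WT and 99.3 to 102.5 in IDRmut. CDH5 alone had a mean of 213 CPM in Control, where KDR had 7.50 and PECAM1, VWF, TEK and CLDN5 at most 1.07. TEK went up while the sum fell, with means of 5.10 CPM in WT and 2.65 in IDRmut. The sum of 6 leukocyte markers was at most 0.786 CPM. Of 6 fibroblast markers only COL1A2 reached 1 CPM in every library, and their sum was 821 to 840 CPM, 669 to 677 and 852 to 913 in the same order. The sum of 5 general epithelial markers, EPCAM and CDH1 among them, was 14.95 to 15.98 CPM, 39.5 to 40.3 and 76.8 to 85.6. KRT8 and KRT18 of that list were expressed and were called higher in both arms. KRT8 had means of 12.01 CPM in Control, 28.17 in WT and 72.45 in IDRmut. KRT18 had means of 1.648, 10.74 and 7.087 CPM in the same order, and KRT19 1.748, 0.7776 and 1.471. The near absence of EPCAM and CDH1 goes against the label of an epithelial carcinoma line, as do the levels of COL1A2 and CDH5. The expression of KRT8 and KRT18 does not. COL1A2 and CDH5 are single genes of lists whose other members were far lower. The cell line is therefore named here only as labelled. The part of these shifts in the chaperone results was not tested. In these bulk libraries, fewer cells that express a gene and less RNA of it per cell cannot be told apart.

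Most chaperone transcripts kept close to their Control level in both ACK1 arms, and CRYAB, the gene of alphaB-crystallin, was the exception in size. A gene was called where edgeR's quasi-likelihood test, fitted to all 6 libraries and adjusted by Benjamini-Hochberg over the 16591 genes tested, gave an adjusted p under 0.05, referred to from here on as the edgeR adjusted p. All 40 chaperone genes passed the filter on low counts. In WT against Control 17 of the 40 were called, 11 higher and 6 lower, beside 35.0% of all genes tested. In IDRmut against Control 15 were called, 12 higher and 3 lower, beside 31.6% of all genes. In WT against IDRmut 16 were called, 7 higher and 9 lower in WT, beside 26.5% of all genes. DESeq2, another test for counts, called 16, 11 and 10 of the 40 in the same comparisons, beside 22.0%, 19.8% and 19.4% of genes. In WT against IDRmut its calls were 7 higher and 3 lower in WT, so the balance of directions there depended on the test. By edgeR, the shares of 42.5%, 37.5% and 40% lay near the 42.4%, 39.5% and 34.3% called among genes whose mean reached 10 CPM, a level reached by every chaperone gene except HSPA2, HSPA1A and HSPB8.

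The changes were small for the most part. The median log2 fold change over the 40 genes was 0.03 in WT and 0.09 in IDRmut against Control, and -0.01 in WT against IDRmut, while the median over all genes was at most 0.004 in each comparison. Against Control, 32 of the 40 genes stayed within 0.25 log2 units in WT, and 32 did so in IDRmut. That is 80% of the list, whereas 60.7% and 61.8% of all genes stayed within that band. Among 91 further protein folding genes, described below, the shares were 76.9% and 82.4%. The median standard error was 0.048 and 0.049 for the 40 genes and 0.086 and 0.089 for all genes. No share among genes of similar level was computed. Called changes of at least 0.5 log2 units were found for 5 chaperone genes in WT, 4 in IDRmut and 3 in WT against IDRmut, beside 12.9%, 10.7% and 7.87% of all genes. Both ACK1 arms were compared with the same Control libraries, so their values are given side by side and not as independent results.

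**Figure D1:**
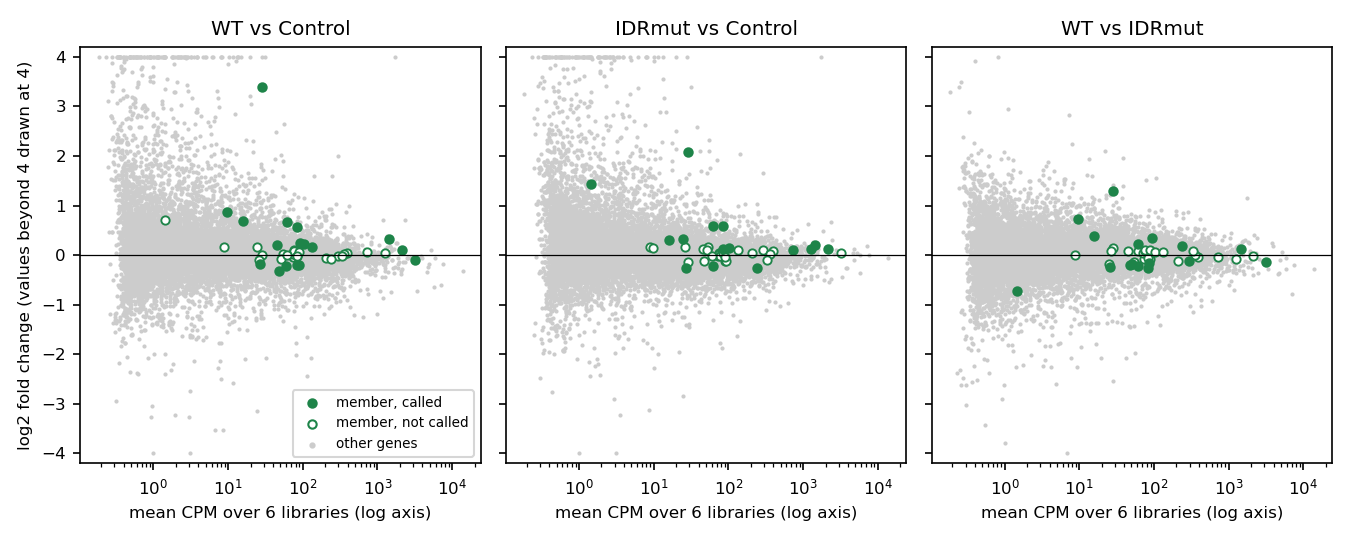
Log2 fold change of each gene tested (vertical axis, values beyond 4 drawn at 4) against its mean CPM over 6 libraries (horizontal log axis) in the 3 comparisons. Filled green points are called chaperone genes, open green points are chaperone genes not called and grey points are other genes; most green points lie near 0 and CRYAB is the highest green point in each panel.

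CRYAB encodes an abundant small heat shock protein of lens and muscle that is also made in many tumours. The gene, ENSG00000109846, occupies positions 111908565 to 111923722 of chromosome 11 on the minus strand (GRCh38, as are all positions given). Its level was 5.48 and 5.38 CPM for Control, 58.5 and 55.4 CPM for WT and 23.3 and 22.9 CPM for IDRmut, from counts between 100 and 1894. The 3 groups did not overlap, with WT highest and Control lowest. CRYAB rose 10.4-fold in WT (log2 fold change 3.39 ± 0.08 SE, edgeR adjusted p = 8.3e-15) and 4.25-fold in IDRmut (2.09 ± 0.09, edgeR adjusted p = 4.7e-11), with n = 2 libraries a group. WT exceeded IDRmut 2.46-fold (1.30 ± 0.06, edgeR adjusted p = 9.4e-11). The neighbouring gene HSPB2, on the opposite strand, covers 20.6% of the CRYAB exon bases. HSPB2 and the read-through gene HSPB2-C11orf52 had 0 counts in all 6 libraries. Whether the authors' counting used strand is not given in the sources used here.

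HSPB1 and HSPB8 are the other 2 of the 4 listed small heat shock proteins that rose, HSPB1 in both arms and HSPB8 in WT. HSPB1 (HSP27), an HSF1 target that binds actin and holds unfolded chains, lies on chromosome 7 from 76302544 to 76304295. Its level was 61.4 and 65.1 CPM for Control, 93.2 and 94.1 for WT and 100.5 and 89.9 for IDRmut. Both arms stood above Control and overlapped each other. The rise was 0.57 ± 0.06 on the log2 scale in WT (edgeR adjusted p = 3.6e-07) and 0.59 ± 0.06 in IDRmut (edgeR adjusted p = 3.7e-07). The difference between WT and IDRmut was -0.02, with a 95% interval from -0.13 to 0.09. HSPB8, which works with BAG3 to deliver damaged proteins to autophagy, lies on chromosome 12 from 119178642 to 119221131.

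HSPB8 was at 7.30 and 7.48 CPM for Control, 13.1 and 13.9 for WT and 7.81 and 8.55 for IDRmut. Only the WT libraries stood far from the rest. It rose by 0.88 ± 0.10 on the log2 scale in WT against Control (edgeR adjusted p = 2.5e-06), and WT exceeded IDRmut by 0.73 ± 0.10 (edgeR adjusted p = 2.3e-05). In IDRmut its change against Control was 0.15, with a 95% interval from -0.09 to 0.39 (edgeR adjusted p = 0.35). HSPB11, listed with this group by name and known as a component of intraflagellar transport, was at 26.6 to 31.5 CPM and was not called in any comparison. The summed level of the 4 genes was 183.6% of Control in WT and 145.2% in IDRmut. CRYAB gave the larger part of that rise in WT, from 5.43 to 57.0 CPM beside 63.3 to 93.6 for HSPB1. In IDRmut HSPB1 gave the larger part, with a mean of 95.2 CPM beside 23.1 for CRYAB. There were 0.086 CRYAB counts per HSPB1 count in Control, 0.609 in WT and 0.243 in IDRmut.

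**Figure D2:**
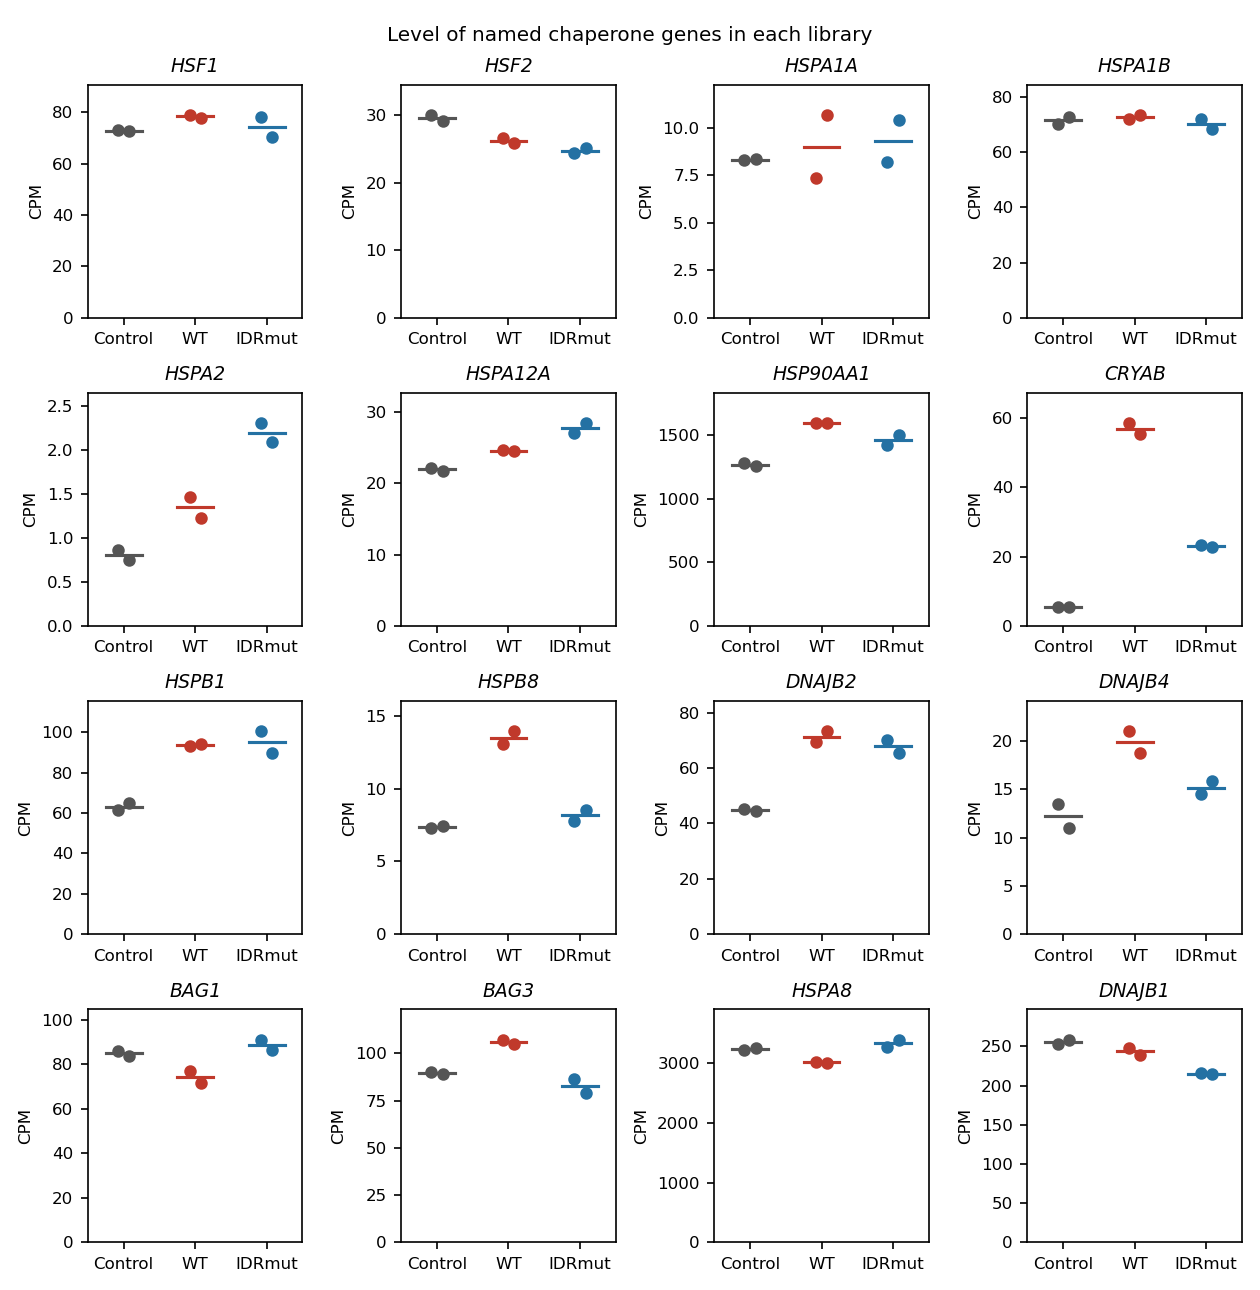
CPM of 16 chaperone genes (vertical axes start at 0) in each of the 6 libraries; points are libraries and lines are group means, with n = 2 a group. CRYAB separates all 3 groups, HSPB8 and BAG3 are high in the WT libraries, and HSPA1B and HSF1 keep similar levels.

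The regulators themselves moved little. HSF1, the main heat shock transcription factor, was at 73.2 and 72.6 CPM for Control, 79.0 and 78.0 for WT and 78.1 and 70.4 for IDRmut. Its libraries in WT lay slightly above Control, and those in IDRmut spanned both groups. The change was 0.10 in WT, with a 95% interval from -0.004 to 0.21 (edgeR adjusted p = 0.13), and 0.03 in IDRmut, with an interval from -0.09 to 0.14 (edgeR adjusted p = 0.76). HSF1 acts through phosphorylation, trimer formation and movement into the nucleus, none of which is measured by its transcript level. Under 5 of 13 other settings HSF1 was called higher in WT, at adjusted p between 0.013 and 0.048.

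HSF2, a related factor that can form mixed trimers with HSF1, lies on chromosome 6 from 122399546 to 122433119. It was at 30.03 and 29.1 CPM for Control, 26.6 and 25.8 for WT and 24.4 and 25.1 for IDRmut. Both arms stood below Control and apart from each other. HSF2 fell by 0.18 ± 0.06 on the log2 scale in WT (edgeR adjusted p = 0.039) and by 0.26 ± 0.07 in IDRmut (edgeR adjusted p = 0.0068). The call in WT ended in 8 of 13 other settings, among them each fit without 1 library of WT or Control (adjusted p from 0.09 to 0.24), DESeq2 (0.24), no low count filter (0.12) and upper-quartile scaling (0.091). The call in IDRmut ended without Control replicate 1 (adjusted p = 0.065) and under DESeq2 (0.066). The 2 arms differed by 0.08, with a 95% interval from -0.06 to 0.22.

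Heat shock elements were looked for in promoter windows from RefSeq (GRCh38.p14) that reach from 250 bases before a gene's start to 50 bases after it. Only the 250 bases before the start were searched. Windows were matched for 36 of the 40 genes, and CRYAB, FKBP4, HSF1 and HSPA14 were not matched. The three-unit element, written GAA-NN-TTC-NN-GAA with N for any base and searched on both strands, stood in the windows of 6 genes, CHORDC1, DNAJB6, HSP90AA1, HSP90AB1, HSPA8 and HSPD1. That is 16.7% of the 36, beside 0.557% of the 27305 genes with a window. A two-unit element, either GAANNTTC or TTCNNGAA, was found for 15 of the 36 genes (41.7%), beside 14.0% of all genes, and every three-unit match contains one. A gene with several windows counted if any of them held the element. A match shows only that these letters are present. The stretches below are a selection from genes that carry the element in its clearest form or turn up among the called genes. DNAJB6, HSPD1 and BAG2 also hold an element and were called against Control, but are not shown. Each is 30 bases on the gene's strand, 5′ to 3′, with the matched element in capitals.

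HSPA8, three-unit, minus strand, chr11:123062170-123062199: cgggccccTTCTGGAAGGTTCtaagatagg
HSP90AA1, three-unit, minus strand, chr14:102087111-102087140: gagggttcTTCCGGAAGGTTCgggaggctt
HSP90AB1, three-unit, plus strand, chr6:44247823-44247852: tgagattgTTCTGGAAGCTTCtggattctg
CHORDC1, three-unit, minus strand, chr11:90223083-90223112: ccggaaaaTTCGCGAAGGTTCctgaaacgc
DNAJB1, two-unit, minus strand, chr19:14518456-14518485: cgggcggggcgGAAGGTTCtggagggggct
HSPB1, two-unit, plus strand, chr7:76302480-76302509: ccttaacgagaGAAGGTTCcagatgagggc
HSPB8, two-unit, plus strand, chr12:119178832-119178861: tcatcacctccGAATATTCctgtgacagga
DNAJB4, two-unit, plus strand, chr1:78004830-78004859: agcatttgctgTTCTAGAAagtacagagac

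By the annotation, the HSPB1 stretch lies outside annotated genes, the DNAJB1 and HSP90AB1 stretches lie in introns of alternative transcripts and the others lie in exons of their own genes, since these genes have several starts. Genes with an element did not all move alike. Of the 10 genes with a window that rose in WT against Control, 6 held a two-unit element. Of the 6 that fell, 2 held one, and of the 20 not called, 7 did. In IDRmut against Control, 5 of 11 genes that rose, 1 of 3 that fell and 9 of 22 not called held one. In WT against IDRmut, 4 of 6 higher in WT, 1 of 8 lower and 10 of 22 not called held one. HSPA8 and CHORDC1 hold three-unit elements, yet HSPA8 fell in WT and CHORDC1 was not called in any comparison. STAT factors bind a similar repeat with a longer spacer. That palindrome, TTCNNNGAA, was found for 1 of the 36 genes, CLPB, beside 8.09% of all genes.

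HSPA1A and HSPA1B encode the stress-inducible HSP70, the textbook target of HSF1, and neither was called in any comparison. They lie next to each other on chromosome 6, HSPA1A from 31815464 to 31817946 and HSPA1B from 31827735 to 31830255. Their promoters are close copies, with 235 identical bases of 249 aligned (94.4%) before the start. The element region of both is shown to let them be compared, followed by the 247 bases before the annotated start of HSPA1B (chr6:31827488-31827734, plus strand), which lie outside annotated genes.

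HSPA1A, two-unit, plus strand, chr6:31815426-31815455: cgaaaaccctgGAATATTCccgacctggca
HSPA1B, two-unit, plus strand, chr6:31827622-31827651: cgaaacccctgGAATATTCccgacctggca
HSPA1B, upstream bases: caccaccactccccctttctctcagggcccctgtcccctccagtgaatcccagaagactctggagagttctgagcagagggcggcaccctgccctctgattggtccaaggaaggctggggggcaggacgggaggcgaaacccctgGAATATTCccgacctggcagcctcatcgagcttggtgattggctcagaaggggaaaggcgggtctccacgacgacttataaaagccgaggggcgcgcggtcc

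HSPA1B was at 70.3 and 72.8 CPM for Control, 72.2 and 73.6 for WT and 72.1 and 68.5 for IDRmut. Both arms overlapped Control, and the WT libraries lay just above the IDRmut ones. Its change was 0.03 in WT, with a 95% interval from -0.07 to 0.13, and -0.03 in IDRmut, with an interval from -0.13 to 0.08 (edgeR adjusted p = 0.70 and 0.73). HSPA1A was at 8.32 and 8.34 CPM for Control, 7.35 and 10.7 for WT and 8.20 and 10.4 for IDRmut. The spread between replicates of an arm was larger than the difference between groups, and the changes of 0.16 in WT and 0.17 in IDRmut were not called (edgeR adjusted p = 0.46 and 0.47). Of the 100-base windows of HSPA1A, 69.9% are shared with HSPA1B. Of those of HSPA1B, 72.7% are shared with other genes, and 68.8% with HSPA1A. How reads were split between the 2 genes is therefore uncertain. The lower level of HSPA1A cannot be read as its own, and the level of HSPA1B carries the same limit. AL671762.1, on the same strand, covers 36.5% of the HSPA1B exon bases and had 0 to 1 counts per library.

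Among the other HSP70 genes, the constitutive HSPA8 was the most abundant and HSPA2 the least. HSPA8 (HSC70), which also uncoats clathrin vesicles, was at 3222 and 3250 CPM for Control, 3022 and 3007 for WT and 3275 and 3390 for IDRmut. The WT libraries were the lowest. HSPA8 fell by 0.10 ± 0.03 on the log2 scale in WT against Control (edgeR adjusted p = 0.016) and was lower in WT than in IDRmut by 0.14 ± 0.03 (edgeR adjusted p = 0.002). Leaving out any 1 library of WT or Control ended the call against Control, with adjusted p from 0.073 to 0.11, as did upper-quartile scaling (0.1).

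HSPA2, an HSP70 best known from male germ cells, lies on chromosome 14 from 64535905 to 64546173. It had 17 and 14 counts for Control, 30 and 42 for WT and 47 and 46 for IDRmut, or 0.862 and 0.753 CPM, 1.47 and 1.23 CPM, and 2.31 and 2.09 CPM. The groups did not overlap, but the counts are low. It rose by 1.43 ± 0.27 on the log2 scale in IDRmut (edgeR adjusted p = 0.00048). The change in WT was 0.71 ± 0.28 (edgeR adjusted p = 0.062), and WT was lower than IDRmut by 0.73 ± 0.22 (edgeR adjusted p = 0.021). Without WT replicate 2 or IDRmut replicate 1 that difference was no longer called (adjusted p = 0.23 and 0.083).

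HSPA12A, a divergent HSP70, lies on chromosome 10 from 116671192 to 116850236. It was at 22.2 and 21.8 CPM for Control, 24.6 and 24.4 for WT and 27.0 and 28.4 for IDRmut, with no overlap between groups. It rose in IDRmut by 0.34 ± 0.07 on the log2 scale (edgeR adjusted p = 0.0013), while the change of 0.16 in WT was not called (edgeR adjusted p = 0.086). HSPA9, the mitochondrial HSP70, rose by 0.10 in IDRmut (edgeR adjusted p = 0.027), a call that ended in 6 of 13 other settings, among them each fit without 1 library of Control or WT (adjusted p from 0.073 to 0.15) and the fit to the 2 groups alone (0.061). HSPA13, a microsomal member, fell by 0.22 in IDRmut (edgeR adjusted p = 0.0038, and 0.083 without Control replicate 1) and stood higher in WT than IDRmut by 0.22 (edgeR adjusted p = 0.0033). HSPA14, which assists folding at the ribosome, was lower in WT than in IDRmut by 0.25 (edgeR adjusted p = 0.012, but 0.066 and 0.075 without either WT library and 0.085 by DESeq2). A second gene entry of the same former name, on the same strand, shares 20.1% of the HSPA14 windows. It had 658 to 1151 counts per library, beside 476 to 820 for the HSPA14 entry used here. Summed over the 8 genes, HSP70 transcripts stood at 95.5% of Control in WT and 103.6% in IDRmut.

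The HSP110 genes, whose products release ADP from HSP70, lay close to Control in both arms. HSPH1 was at 311 to 341 CPM, HSPA4 at 277 to 315 and HSPA4L at 70.9 to 78.6 over the 6 libraries. Their changes against Control lay between -0.09 and 0.10 on the log2 scale and were not called. HSPA4 was lower in WT than in IDRmut by 0.12 ± 0.04 (edgeR adjusted p = 0.042), and leaving out any 1 library except IDRmut replicate 1 ended this call (adjusted p from 0.052 to 0.21), as did DESeq2 (0.089).

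Both cytosolic HSP90 genes rose in both arms, HSP90AA1 more than HSP90AB1. HSP90AA1 encodes the stress-responsive HSP90alpha and lies on chromosome 14 from 102080738 to 102139699. It was at 1281 and 1257 CPM for Control, 1594 and 1595 for WT and 1421 and 1500 for IDRmut. The groups did not overlap. The rise was 0.33 ± 0.03 on the log2 scale in WT (edgeR adjusted p = 7.8e-07) and 0.20 ± 0.03 in IDRmut (edgeR adjusted p = 0.0002). WT exceeded IDRmut by 0.13 ± 0.03 (edgeR adjusted p = 0.01), and without WT replicate 1 or 2 the adjusted p was 0.07 or 0.097.

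HSP90AB1, the constitutive HSP90beta, was at 2018 and 2037 CPM for Control, 2191 and 2178 for WT and 2200 ± 42.2 for IDRmut (mean ± SD, n = 2). Both arms stood above Control. It rose by 0.11 ± 0.03 in WT and 0.12 ± 0.03 in IDRmut on the log2 scale (edgeR adjusted p = 0.012 and 0.0076). Without either Control library neither rise was called (adjusted p from 0.057 to 0.12), and without either WT library the rise in WT was not called (adjusted p = 0.1 and 0.11). The 2 HSP90 genes did not move in equal measure: there were 0.626 ± 0.013 HSP90AA1 counts per HSP90AB1 count in Control, 0.730 ± 0.003 in WT and 0.664 ± 0.013 in IDRmut (SD, n = 2). Their promoter stretches printed above both hold the three-unit element.

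TRAP1, the mitochondrial HSP90, went the other way. It was at 62.4 and 64.7 CPM for Control, 54.7 and 54.8 for WT and 64.4 and 62.1 for IDRmut. Only WT stood below the others. TRAP1 fell by 0.21 ± 0.05 in WT against Control (edgeR adjusted p = 0.0024) and was lower by 0.21 ± 0.05 in WT than in IDRmut (edgeR adjusted p = 0.0041). Exons of DNASE1, on the opposite strand, cover 29.3% of the TRAP1 exon bases, and DNASE1 had 88 to 210 counts per library beside 1116 to 1872 for TRAP1. Summed HSP90 transcripts were 114.1% of Control in WT and 110.8% in IDRmut.

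HSPD1 and HSPE1 form the mitochondrial chaperonin HSP60 with its lid HSP10, and CLPB is a disaggregase of the mitochondrial intermembrane space. HSPD1 was at 1201 and 1237 CPM for Control, 1266 and 1238 for WT and 1289 and 1369 for IDRmut, with the IDRmut libraries highest. It rose by 0.12 ± 0.04 in IDRmut on the log2 scale (edgeR adjusted p = 0.013), and without Control replicate 1 this call ended (adjusted p = 0.17). HSPE1, which starts within the same promoter region on the opposite strand, changed by 0.02 in WT and 0.16 in IDRmut and was not called. Its exon bases are overlapped over 23.9% by neighbours. CLPB was lower in WT than in IDRmut by 0.17 ± 0.05 (edgeR adjusted p = 0.024), a call that ended without either WT library (adjusted p = 0.12 and 0.15), under DESeq2 (0.13) and with no low count filter (0.053).

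Of the 9 J proteins, which stimulate the ATPase of HSP70, 3 were called higher and 2 lower in WT against Control, and 4 higher and 1 lower in IDRmut. That is 55.6% of them in each arm, beside 35.0% and 31.6% of all genes. Among genes whose mean reached 10 CPM, as all 9 did, the shares were 42.4% and 39.5%. DNAJB2 encodes a J protein with ubiquitin-binding motifs, best known from neurons, and lies on chromosome 2 from 219279267 to 219286900. It was at 45.1 and 44.5 CPM for Control, 69.5 and 73.2 for WT and 70.3 and 65.3 for IDRmut. Both arms stood above Control and overlapped each other. DNAJB2 rose 1.59-fold in WT (log2 fold change 0.67 ± 0.05, edgeR adjusted p = 3.5e-08) and 1.51-fold in IDRmut (0.60 ± 0.06, edgeR adjusted p = 3.2e-07). The arms differed by 0.08, with a 95% interval from -0.03 to 0.19. The searched part of its RefSeq window, before the start, held neither form of the heat shock element.

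DNAJB4, a cytosolic J protein of the same class as DNAJB1, lies on chromosome 1 from 77979175 to 78017964. It was at 13.5 and 11.0 CPM for Control, 21.0 and 18.8 for WT and 14.5 and 15.8 for IDRmut. The groups did not overlap, with WT highest. DNAJB4 rose by 0.68 ± 0.10 in WT (edgeR adjusted p = 3.9e-05) and by 0.30 ± 0.11 in IDRmut (edgeR adjusted p = 0.039). WT exceeded IDRmut by 0.38 ± 0.09 (edgeR adjusted p = 0.0062). The call in IDRmut ended without Control replicate 2 (0.16, adjusted p = 0.37) or IDRmut replicate 2 (0.24, adjusted p = 0.15) and under DESeq2 (adjusted p = 0.15), and WT against IDRmut reached adjusted p = 0.05 without WT replicate 1.

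DNAJB1, the main stress-inducible partner of HSP70, was at 253.6 and 258.7 CPM for Control, 248 and 239 for WT and 216 and 215 for IDRmut. Only IDRmut stood far below. It fell by 0.25 ± 0.04 in IDRmut (edgeR adjusted p = 6.1e-05) and stood higher in WT than IDRmut by 0.18 ± 0.04 (edgeR adjusted p = 0.0017). The change of -0.07 in WT was not called. DNAJC7, which passes clients between HSP70 and HSP90, rose by 0.22 in WT (edgeR adjusted p = 0.00061) and by 0.15 in IDRmut (edgeR adjusted p = 0.01), the latter not called without either Control library (adjusted p = 0.074 and 0.077) or by DESeq2 (0.056). DNAJA3, the mitochondrial J protein, rose by 0.13 in IDRmut (edgeR adjusted p = 0.035), and 8 of 13 other settings ended that call. It was also lower in WT than in IDRmut by 0.15 (edgeR adjusted p = 0.013, but 0.093 and 0.13 without either WT library and 0.073 by DESeq2).

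DNAJC3, which acts with BiP in the endoplasmic reticulum, fell by 0.31 ± 0.05 in WT against Control (edgeR adjusted p = 0.00018) and was lower in WT than in IDRmut by 0.20 (edgeR adjusted p = 0.0086, but 0.067 and 0.073 without either WT library and 0.062 by DESeq2). Its levels were 53.4 and 51.7 CPM for Control, 42.2 and 42.5 for WT and 47.7 and 49.8 for IDRmut, with no overlap between groups. DNAJB6, which suppresses aggregation of polyglutamine proteins, fell by 0.19 in WT (edgeR adjusted p = 0.0028, and 0.066 without Control replicate 1). DNAJA1 at 374 to 414 CPM and DNAJA2 at 198 to 224 CPM, the main class A partners, were not called in any comparison.

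**Figure D3:**
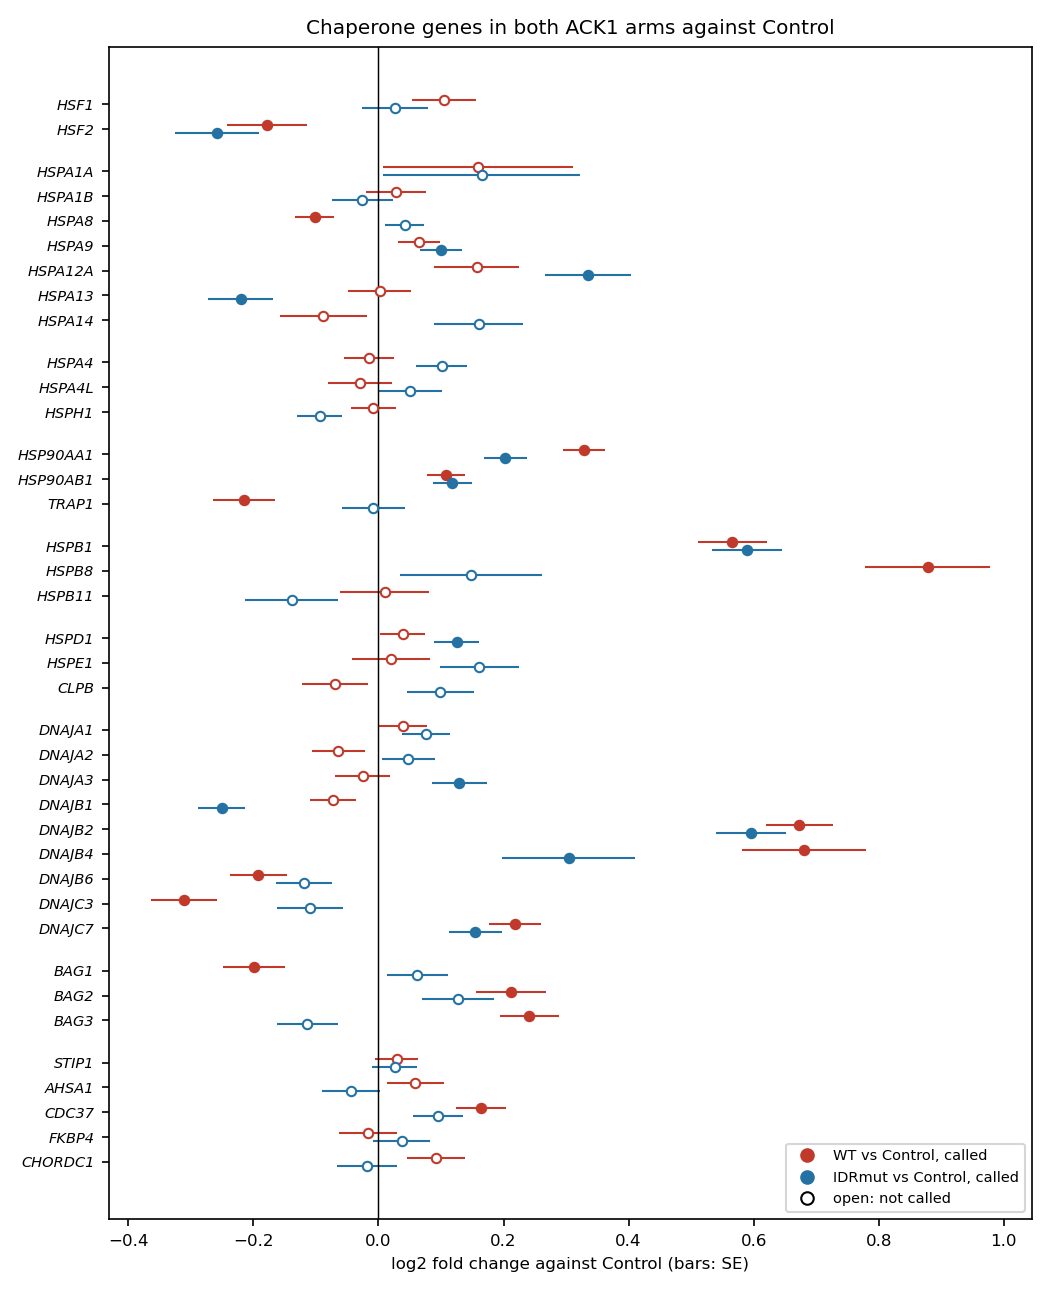
Log2 fold change against Control for 38 chaperone genes in WT (red) and IDRmut (blue), ordered by role; bars are SE and filled points are called. CRYAB (3.39 and 2.09) and HSPA2 (0.71 and 1.43) are left out to keep the scale readable; HSPB1 and DNAJB2 lie right of 0.5 in both arms and HSPB8 in WT.

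Of the 3 BAG proteins, which bind the ATPase domain of HSP70, BAG2 and BAG3 rose and BAG1 fell in WT against Control. BAG3, the autophagy partner of HSPB8, lies on chromosome 10 from 119651370 to 119677819 and was at 90.3 and 88.9 CPM for Control, 107 and 105 for WT and 86.5 and 79.2 for IDRmut. WT stood above Control and IDRmut below it. BAG3 rose by 0.24 ± 0.05 in WT (edgeR adjusted p = 0.00073) and stood higher in WT than IDRmut by 0.36 ± 0.05 (edgeR adjusted p = 2.7e-05). Its change of -0.11 in IDRmut was not called (edgeR adjusted p = 0.091). HSPB8 and BAG3 thus both stood above IDRmut and Control in the WT libraries.

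BAG1, an exchange factor that links HSP70 to the proteasome, lies on chromosome 9 from 33247820 to 33264720. It was at 86.0 and 83.8 CPM for Control, 76.8 and 71.7 for WT and 91.0 and 86.4 for IDRmut. Only the WT libraries were low. BAG1 was lower in WT than in IDRmut by 0.26 ± 0.05 (edgeR adjusted p = 0.00066), and it fell by 0.20 ± 0.05 in WT against Control (edgeR adjusted p = 0.0045). The fall against Control was not called without Control replicate 1 or WT replicate 2 (adjusted p = 0.059 and 0.12). BAG2, an inhibitor of the ubiquitin ligase CHIP, rose by 0.21 in WT (edgeR adjusted p = 0.0066), and leaving out either Control library or WT replicate 1 gave adjusted p from 0.053 to 0.086. RAB23, on the opposite strand, covers 42.7% of the BAG2 exon bases.

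Of the 5 HSP90 co-chaperones, 1 was called, CDC37 in WT against Control. CDC37, which loads kinases onto HSP90, was at 123.9 and 127 CPM for Control, 140.7 and 140.3 for WT and 135.5 and 132.3 for IDRmut. It rose by 0.16 ± 0.04 in WT (edgeR adjusted p = 0.0038), and without Control replicate 1 or WT replicate 2 the adjusted p was 0.067 or 0.056. STIP1, which bridges HSP70 and HSP90, stayed at 351 to 365 CPM in all 6 libraries. AHSA1, the activator of the HSP90 ATPase, the immunophilin FKBP4 and CHORDC1 lay within 0.11 log2 units in all 3 comparisons and were not called.

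**Figure D4:**
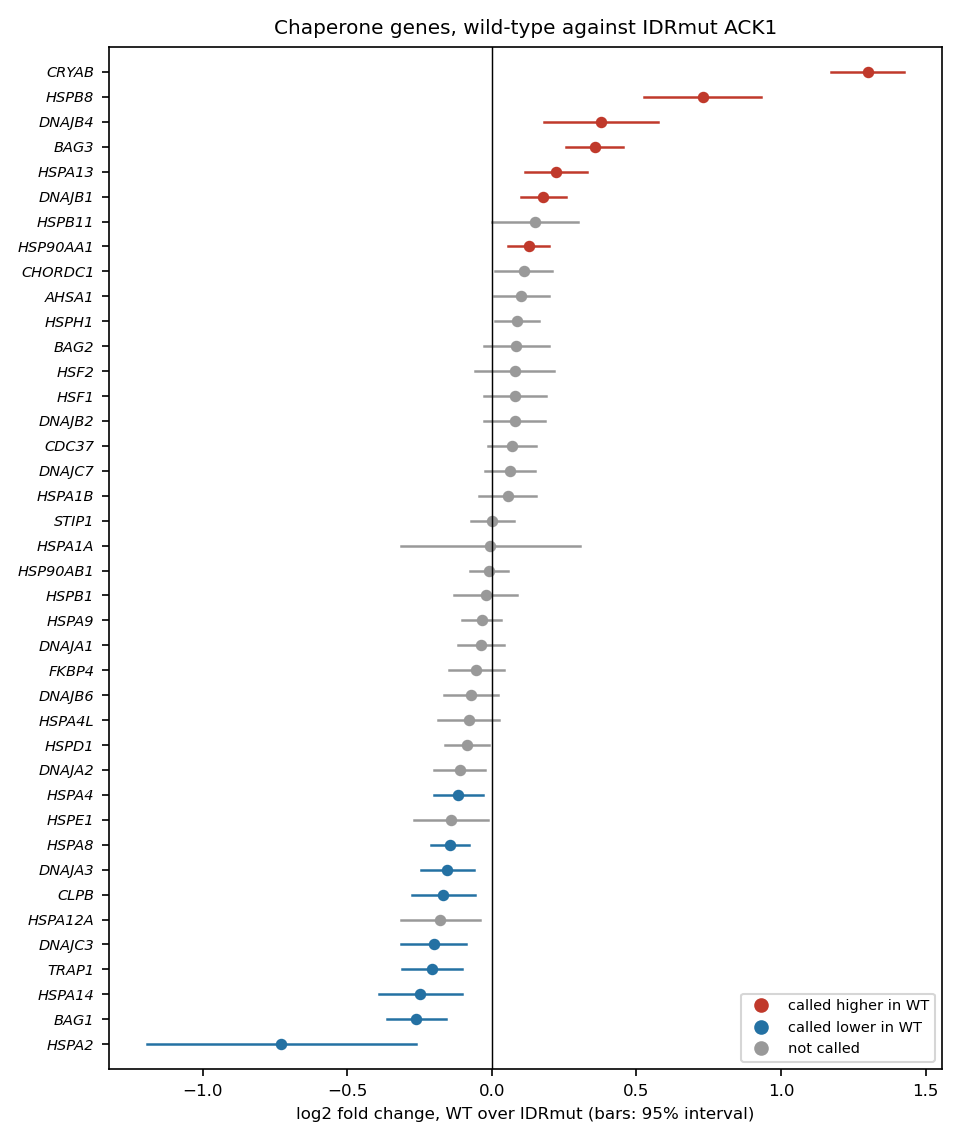
Log2 fold change of WT over IDRmut for all 40 chaperone genes, ordered by size, with 95% intervals; red marks genes called higher in WT, blue lower in WT and grey not called. CRYAB, HSPB8, DNAJB4 and BAG3 stand at the top and HSPA2 at the bottom.

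Seen across all roles, the 40 genes together took 1.16% of counts in each Control library, 1.26% in each WT library and 1.24% and 1.28% in IDRmut. Their summed CPM was 103.9% of Control in WT and 106% in IDRmut. Levels per kilobase of merged exon length allow genes to be ranked. On that scale HSP90AB1 at 680 and HSPA8 at 667 CPM per kb were the highest in Control, followed by HSPD1 at 287, HSP90AA1 at 242 and DNAJA1 at 140. CRYAB, at 1.79 CPM per kb, ranked 39th of the 40 in Control and HSPA2 last at 0.140. CRYAB reached 18.8 CPM per kb in WT and 7.61 in IDRmut, still far below the cytosolic HSP90 genes. HSP90AB1 kept the top place and HSPA8 the next in each group. HSP90AA1 stood below HSPD1 in Control and in IDRmut (278 beside 313 CPM per kb) and above it in WT (304 beside 295 CPM per kb).

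**Figure D5:**
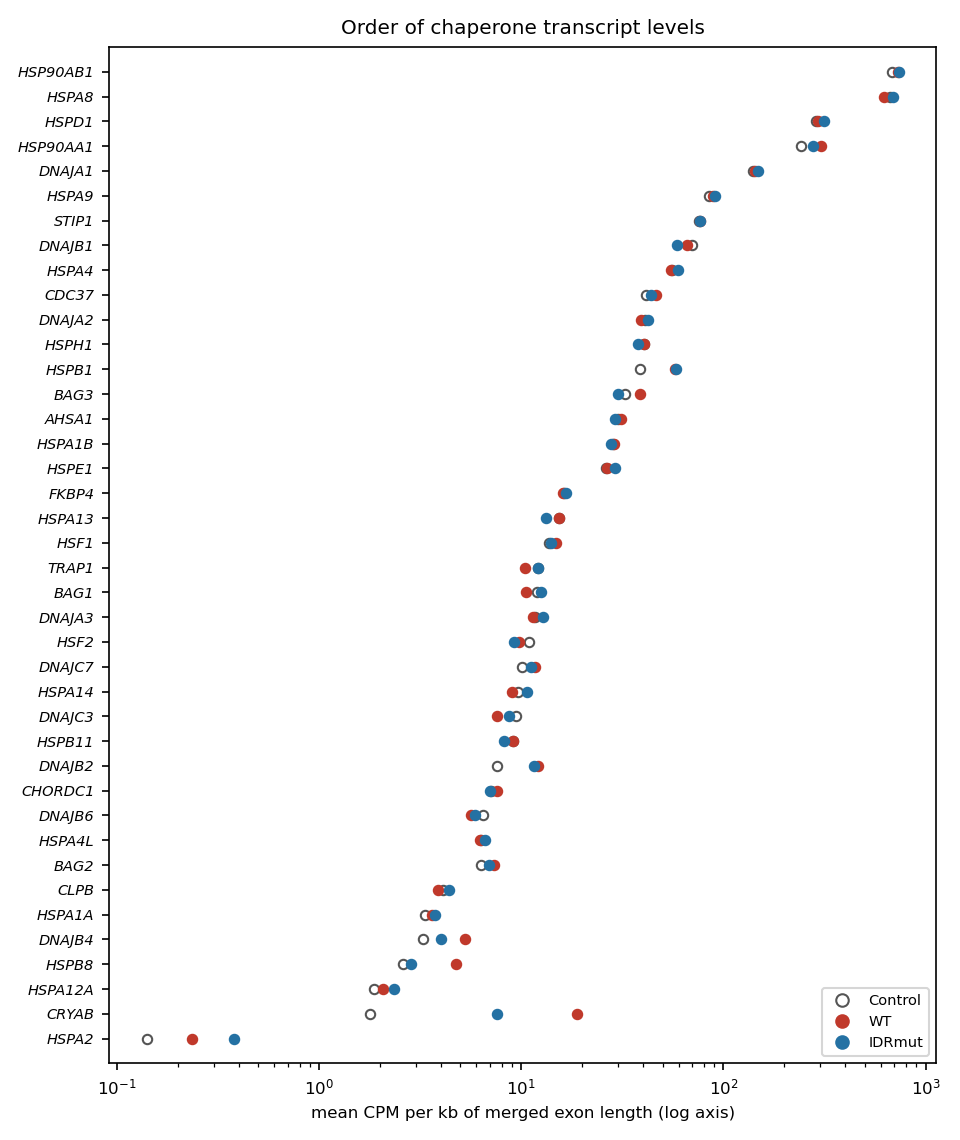
Mean CPM per kb of merged exon length (log axis) of the 40 chaperone genes, ordered by the Control level; open points are Control, red WT and blue IDRmut, each a mean of 2 libraries. The points of most genes lie close together, and CRYAB, HSPA2, HSPB8, HSPB1 and DNAJB2 show the widest gaps.

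A wider set of 96 protein folding genes in 6 lists, 91 of which were tested, gave 14 higher and 16 lower in WT against Control, 19 higher and 13 lower in IDRmut, and 9 higher and 18 lower in WT against IDRmut. These are 33.0%, 35.2% and 29.7% of the genes tested, near the 35.0%, 31.6% and 26.5% of all genes. Among 14 subunits of the TRiC chaperonin and prefoldin, which fold actin and tubulin, 2 rose in WT, and 4 rose and 2 fell in IDRmut. PFDN6, a prefoldin subunit, rose by 0.27 in WT and 0.26 in IDRmut (edgeR adjusted p = 0.0031 and 0.006). Among 19 further partners of HSP70 and HSP90, 3 fell in each arm. FKBP5, an HSP90-bound immunophilin, fell by 0.33 in WT and 0.18 in IDRmut (edgeR adjusted p = 2.3e-05 and 0.0061). The phosphatase PPP5C fell by 0.13 in WT and 0.23 in IDRmut (edgeR adjusted p = 0.027 and 0.00057).

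Of 12 further cytosolic J proteins, 1 rose and 2 fell in WT, and 2 rose and 3 fell in IDRmut. DNAJC6, the auxilin that recruits HSC70 to clathrin coats, rose by 0.36 in WT and stood higher in WT than IDRmut by 0.44 (edgeR adjusted p = 0.0001 and 1.9e-05). DNAJC9, a histone-binding J protein, fell by 0.23 in WT and 0.34 in IDRmut (edgeR adjusted p = 0.00092 and 4.8e-05). Of 15 genes of mitochondrial protein quality control, 3 rose and 1 fell in WT, and 5 rose in IDRmut. SPG7, a subunit of an inner membrane protease, rose by 0.19 in WT and 0.25 in IDRmut (edgeR adjusted p = 0.0024 and 0.00025). The counts of these 4 lists lie below the share called over all genes in each comparison, with the exceptions of 6 of 14 TRiC and prefoldin genes, 5 of 12 J proteins and 5 of 15 mitochondrial genes in IDRmut against Control and 4 of 12 J proteins in WT against IDRmut.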

How the data were processed

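RNA-seq counts per gene for 6 libraries (2 per group) were deposited by the authors as raw counts, not normalized. HISAT2 2.2.1, SAMtools 1.14, featureCounts 2.0.1 and GRCh38 are named in the submitters' processing notes. Which annotation and strand setting they used, and how multiply matching reads were counted, is not given in the sources used here. Genes were kept by filterByExpr (minimum count 10, total 15; 16591 genes, at least 99.8% of each library), scaled by TMM and fitted with edgeR 4.0.16 (R 4.3.3) as 3 group means. SE is the log2 fold change divided by the root of the F statistic. Exon lengths, overlaps and coordinates came from GENCODE 29, and promoter windows from RefSeq. Counts carry counting error that PCR duplicates can understate. The members, companion lists and promoter motifs were chosen with earlier results of these data known. Full values were given for HSF1, HSF2, HSPA1A, HSPA1B and CRYAB, and per comparison for called members with a log2 change of at least 0.5, or else the 6 largest; other members by range or change. Named companions are, per list and comparison, at most the 2 largest called changes with at least 5 CPM in 1 group. HSPA5, which was not called, and HSPB7 and HSPA6, which lie under that level, are named outside this rule. The other members whose library values are given (such as HSPA8, HSP90AB1 and DNAJB1) were chosen after their values were seen. Alternatives were other scalings, DESeq2 1.42.0, no filter, pairwise fits, a replicate block, a GC and length correction and leaving out each library. The procedure was tested on simulated counts.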

Additional observations from a re-analysis of the deposited data

How the results depend on the processing

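The mean level was lowest for HSPA2, HSPA1A and HSPB8, which also had the widest intervals. The WT replicates of HSPA1A also differed, at 7.35 and 10.7 CPM, and what set the widths was not tested. DESeq2 1.42.0 called 3649 genes in WT against Control, 3290 in IDRmut against Control and 2534 in WT against IDRmut, where the main test called 5807, 5237 and 4396. It called 10 chaperone genes in WT against IDRmut in place of 16 (HSPA2 had no adjusted p there), and 21 and 15 companion genes in IDRmut against Control and WT against IDRmut in place of 32 and 27. The cause was not tested. Leaving out 1 library gave 3974 to 7028, 3451 to 5522 and 2590 to 4761 genes, 10 to 20, 8 to 22 and 9 to 21 chaperone genes, and 18 to 44, 17 to 37 and 11 to 36 companion genes, in the same order. The lowest chaperone counts came without Control replicate 1 (10 and 8) and without WT replicate 1 or 2 (9 and 9). Without Control replicate 1 the genes called in IDRmut against Control were 3451, and without WT replicate 2 those in WT against IDRmut were 2590. Companion genes called fell to 18 without Control replicate 2 and 19 without WT replicate 2 in WT against Control, to 17 and 20 without Control replicate 1 or 2 in IDRmut against Control, and to 11 and 13 without WT replicate 1 or 2 in WT against IDRmut. Such fits hold 1 library in a group and assume that it varies like the others. Upper-quartile scaling called 21 chaperone genes in IDRmut against Control in place of 15, and the correction for GC content and length called 23, 21 and 22 in the 3 comparisons. Taken over all genes tested, same-numbered libraries did not deviate together (correlations of -0.021, -0.024 and -0.029). The labels do not say whether they share more than the number. A replicate block gave 16, 13 and 15 chaperone genes and 5440, 4836 and 3966 genes. It ended the calls of HSF2 in WT (adjusted p = 0.063), HSPA9 and DNAJA3 in IDRmut (0.05 and 0.057) and HSPA4 in WT against IDRmut (0.054). The calls of CRYAB in all 3 comparisons and of HSPB1, DNAJB2 and HSP90AA1 against Control held under all 13 alternatives. So did those of HSPB8 and BAG3 in WT against Control and against IDRmut. In WT against Control the rises of DNAJB4 and DNAJC7 and the falls of TRAP1 and DNAJC3 also held. In IDRmut against Control the rises of HSPA2 and HSPA12A and the fall of DNAJB1 held too. In WT against IDRmut, HSPA13 and DNAJB1 stayed called higher and HSPA8, TRAP1 and BAG1 lower in WT. No chaperone gene reversed.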

Other observations

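A list of 16 chaperones of the endoplasmic reticulum lies outside the heat shock list. In WT against Control 10 of them fell (62.5%, beside 35.0% of all genes), and the median log2 fold change was -0.14. In IDRmut against Control 4 fell and 1 rose (31.2%, beside 31.6%), with a median of -0.05. In WT against IDRmut 8 were lower (50%, beside 26.5%), with a median of -0.10. PDIA4, a disulfide isomerase, was at 540.8 and 539.2 CPM for Control, 375 and 376 for WT and 459 and 459 for IDRmut. It fell by 0.52 ± 0.03 in WT and by 0.23 ± 0.03 in IDRmut (edgeR adjusted p = 1.7e-09 and 3.5e-05). HSP90B1, the HSP90 of the endoplasmic reticulum, fell by 0.34 ± 0.03 in WT (edgeR adjusted p = 7.2e-07) and was lower in WT than in IDRmut by 0.30 (edgeR adjusted p = 5.2e-06), while its cytosolic relatives HSP90AA1 and HSP90AB1 rose in both arms. HSPA5 (BiP) was not called, with changes of -0.06 and 0.01 against Control. DNAJC3, a heat shock list gene that acts in this compartment, fell by 0.31 in WT.

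Of 20 other heat shock factor and stress genes, 15 were tested, of which 8 rose in WT, 7 rose and 1 fell in IDRmut, and 6 were higher and 2 lower in WT against IDRmut. That is 53.3% in each comparison, beside 35.0%, 31.6% and 26.5% of all genes. HSPB7, a small heat shock protein at 0.269 to 1.23 CPM, rose by 1.24 ± 0.37 in WT and 1.23 ± 0.39 in IDRmut (edgeR adjusted p = 0.016 and 0.023). HSPA6, a stress-inducible HSP70 at 0.323 to 1.08 CPM, rose by 1.12 ± 0.37 in WT (edgeR adjusted p = 0.027) and stood above IDRmut by 1.19 ± 0.37 (edgeR adjusted p = 0.024). These 2 genes lie under the level set for naming and were chosen after their values were seen. HMOX1, heme oxygenase, was at 12.5 and 13.2 CPM for Control, 38.8 and 37.2 for WT and 17.2 and 16.8 for IDRmut. It rose by 1.56 ± 0.07 in WT and by 0.40 ± 0.08 in IDRmut (edgeR adjusted p = 3.5e-11 and 0.0013). WT exceeded IDRmut by 1.16 ± 0.07 (edgeR adjusted p = 1.6e-09). SQSTM1, the autophagy receptor p62, rose by 0.78 ± 0.05 in WT and by 0.31 ± 0.05 in IDRmut (edgeR adjusted p = 7.8e-10 and 9.6e-05). SQSTM1 stood higher in WT than IDRmut by 0.47 ± 0.05 (edgeR adjusted p = 6.4e-07). In IDRmut the largest called changes above 5 CPM were those of SERPINH1, the collagen chaperone HSP47, at 0.51 ± 0.07, and of CLU, a secreted chaperone, at 0.41 ± 0.05 (edgeR adjusted p = 1.9e-05 and 3.4e-06). SERPINH1 and CLU also rose in WT, by 0.36 and 0.14 (edgeR adjusted p = 0.00049 and 0.026).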
